A study of Mus musculus with 12 samples.

Results

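The genes of the aminoacyl-tRNA synthetases were followed in activated mouse splenic B cells with and without Pdap1, a small phosphoprotein that binds platelet-derived growth factor A. The set holds 36 of the 55536 features of the count table, 20 genes of cytosolic enzymes and 16 genes of mitochondrial enzymes. It was taken by gene symbol, with the cytosolic methionine enzyme gene *Mars* included, and each symbol was matched to an Ensembl identifier in GENCODE M21 on GRCm38. The rule reads gene names alone, and the set was chosen with earlier results of these data known. Each member had at least 67 counts in each of the 12 libraries, and all 36 passed the filter on low counts in each comparison. *Lars2*, whose counts spread over libraries far more than those of the other members, is described apart, and counts of mitochondrial genes are given for the other 15.

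RNA came from C57BL/6 mice of 7 to 27 weeks and either sex, used in groups of matched age, with 3 mice per genotype. Control mice carried a single allele of a B lineage Cre, and Pdap1-deficient mice carried the same Cre allele together with Pdap1F/F, so Cre was present in both genotypes. That Cre deletes the floxed exon 2 of *Pdap1* in cells of the B lineage and leaves other splenocytes intact. The controls held littermates and mice of inbred stock, and the age and sex of each mouse were not given in the sources used here. Splenocytes were kept for 48 h with 5 µg/ml LPS and either 5 ng/ml IL-4 or 10 ng/ml BAFF plus 2 ng/ml TGFβ. The former is named LPS-IL-4 (for switching to IgG1) and the latter LPS-BAFF-TGFβ (for switching to IgG2b). Genotype and stimulation gave 4 groups of 3 libraries. The same numbers, 1 to 3, are used in both stimulations and were taken to mark the mouse, which the sources do not state. The sample labels also name the CH12 lymphoma line, whereas the methods describe primary B cells, which was followed here.

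Each synthetase joins its own amino acid to the matching transfer RNAs, and the pool of charged transfer RNAs feeds the ribosome. Cytosolic enzymes serve cytosolic translation, and a separate set of nuclear genes, with names ending in 2, encodes enzymes imported into mitochondria for the ribosomes there. *Gars* and *Kars* make both forms from a single gene, *Eprs* joins a glutamate and a proline enzyme in one chain, and several cytosolic enzymes are held together in the multisynthetase complex. Activated B cells enlarge and make much protein, and the transcription factor Atf4, an effector of the integrated stress response, is known to act on many cytosolic synthetase genes.

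Total counts ran from 4579793 to 69500640 per library. *Pdap1* was between 80.1 and 198 CPM (read counts scaled to the library's total) in the 6 control libraries and between 22.9 and 29.9 in the 6 Pdap1-deficient ones. The 4 B cell markers (*Cd79a*, *Cd79b*, *Ms4a1* and *Pax5*) summed to between 1700 and 2770 CPM in every library, while the 4 T cell and 2 natural killer cell markers summed to at most 14 and 0.437. The 3 myeloid markers (*Lyz2*, *Csf1r* and *Itgam*) summed to between 0.897 and 7.53 CPM in the controls. In Pdap1-deficient mice 1, 2 and 3 they summed to 0.854, 133 and 14 with LPS-IL-4, and to 1.77, 335 and 48.3 with LPS-BAFF-TGFβ. Mouse 2 was also the lowest Pdap1-deficient library for 16 of the 20 cytosolic members with LPS-IL-4 and for 17 in the other culture. Of the 15 mitochondrial genes it was lowest for 9 and for 4. The share over all genes was not computed, and the part of the myeloid markers in these counts was not tested. The LPS-BAFF-TGFβ library of control mouse 1 also stood apart, with 69500640 counts and 37300 CPM on the ribosomal RNA feature *CT010467.1*, against 257 to 19940 in the other 11 libraries. In such bulk samples, fewer cells of a type and less RNA per cell cannot be told apart.

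In control B cells the cytosolic genes stood above the mitochondrial genes in level per length. Over the 20 cytosolic genes the median was 82.5 CPM per kb of mRNA in LPS-IL-4 and 68.4 in LPS-BAFF-TGFβ, against 10.8 and 10.7 over the 15 mitochondrial genes. *Eprs* was highest among the cytosolic genes, at 187 ± 9.3 CPM per kb with LPS-IL-4 (SD, n = 3), followed by *Gars* at 177 ± 6.7, *Kars* at 163 ± 1.3 and *Dars* at 162 ± 18. *Kars* and *Dars* differed by less than the SD of *Dars*, while *Eprs* differed from *Gars*, and *Gars* from *Kars*, by more than either SD. *Wars*, the tryptophan enzyme gene, was lowest at 34.4 ± 2.3, next to *Cars*, the cysteine enzyme gene, at 40.2 ± 1.1. Among the mitochondrial genes *Rars2* (arginine) was highest at 35.9 ± 2.1, just above the lowest cytosolic gene, and *Pars2* (proline) lowest at 4.73 ± 0.26. *Mars2* is annotated as a transcript of 11294 bases, so its level per length, 7.80 ± 0.69, depends on that length more than the others.

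**Figure D1:**
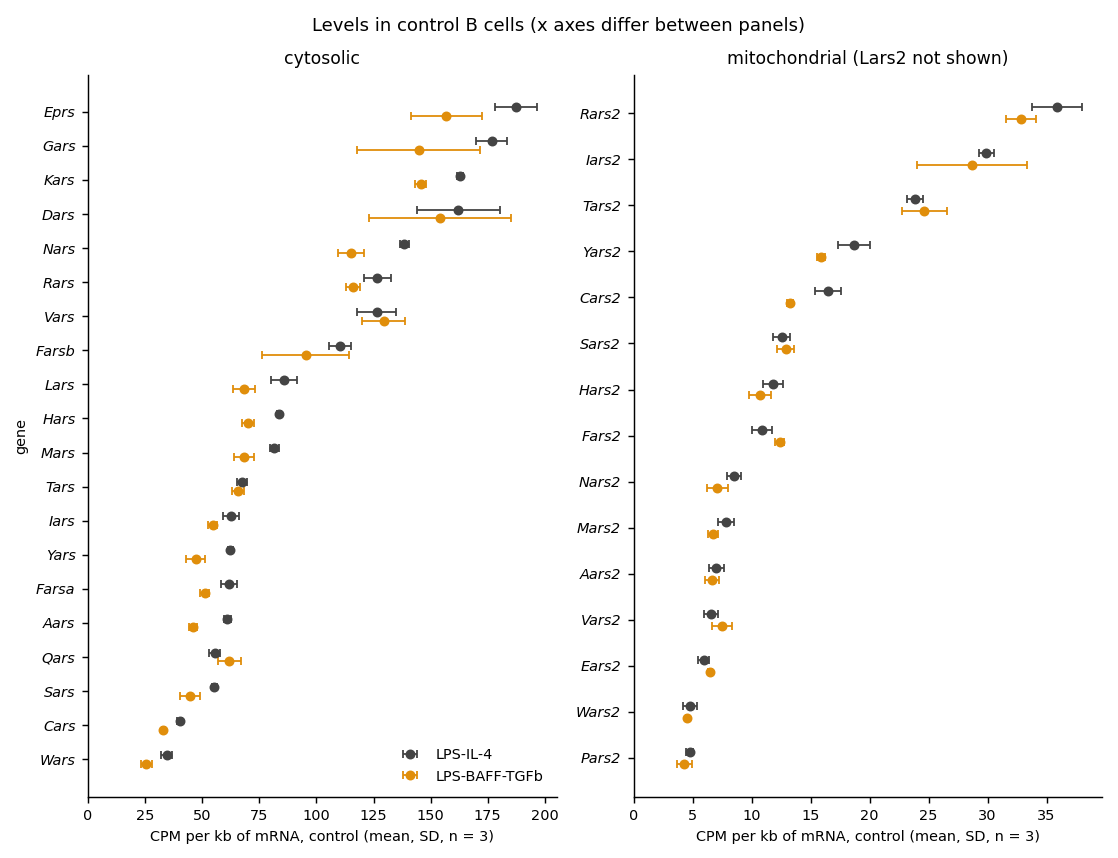
Level of each synthetase gene in control B cells, in CPM per kb of mRNA (mean and SD of 3 libraries), for LPS-IL-4 and LPS-BAFF-TGFβ, with cytosolic genes on the left, mitochondrial genes on the right and different x axes. The highest mitochondrial gene, *Rars2* at 35.9 with LPS-IL-4, stands at the level of the lowest cytosolic genes, *Wars* at 34.4 and *Cars* at 40.2.

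The comparison of genotypes within LPS-IL-4 asked which of these genes change when B cells lack Pdap1. Of the 20 cytosolic genes 6 rose and 0 fell: *Cars* (cysteine), *Nars* (asparagine), *Aars* (alanine), *Sars* (serine), *Yars* (tyrosine) and *Iars* (isoleucine) (edgeR's quasi-likelihood F test, adjusted p under 0.05). Of all 15074 genes tested 2.79% were called higher and 2.12% lower. The rises were of 1.36- to 1.89-fold. Of the 15 mitochondrial genes 0 were called, and 4 of them had an unadjusted p under 0.05, beside 23.8% of all genes tested. The median log2 difference was 0.06 over the cytosolic genes and -0.21 over the 15 mitochondrial genes, beside 0.02 over all genes tested.

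*Cars* (ENSMUSG00000010755, chr7:143557230-143600090) showed the largest rise. Its level was 126, 132 and 132 CPM in the controls and 254, 228 and 255 in the Pdap1-deficient libraries with LPS-IL-4, so that every Pdap1-deficient library was well above every control. The log2 difference was 0.91 ± 0.10 (SE, adjusted p = 0.00123, edgeR). With LPS-BAFF-TGFβ the controls stood at 105, 105 and 109 CPM and the Pdap1-deficient libraries at 219, 210.1 and 227, with a log2 difference of 1.05 ± 0.10 (adjusted p = 0.00217, edgeR). Again the groups were far apart. *Cars* was called in both stimulations under every alternative tried, with the largest adjusted p at 0.0249 and 0.0336.

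*Nars* (ENSMUSG00000024587, on chromosome 18) stood at 376, 386 and 378 CPM in the LPS-IL-4 controls and 709, 518 and 668 in the Pdap1-deficient libraries. With LPS-BAFF-TGFβ the levels were 312, 333 and 304 against 584, 492 and 619.8. The control levels were tight and the groups did not overlap, with mouse 2 the lowest Pdap1-deficient library in both cultures. Its log2 difference was 0.73 ± 0.13 (adjusted p = 0.0176, edgeR) and 0.85 ± 0.12 (adjusted p = 0.0175, edgeR).

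*Aars* (ENSMUSG00000031960, chr8:111033144-111057664) was at 340.1, 354 and 359 CPM in the LPS-IL-4 controls and at 573, 490.3 and 488 without Pdap1. In LPS-BAFF-TGFβ it was at 273, 267 and 252 in the controls and at 482, 436 and 471 without Pdap1. The groups did not overlap in either culture, and the log2 difference was 0.55 ± 0.11 (adjusted p = 0.0234, edgeR) and 0.82 ± 0.11 (adjusted p = 0.0105, edgeR). These differ by 0.25 ± 0.13 on the log2 scale, which did not pass the test of genotype by stimulation (adjusted p = 0.983, edgeR).

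*Iars* (ENSMUSG00000037851, chr13:49682100-49734267), whose enzyme belongs to the multisynthetase complex, was at 287, 285 and 258 CPM in the LPS-IL-4 controls and at 384, 389.5 and 367 without Pdap1. In LPS-BAFF-TGFβ the values were 251, 240.4 and 233 against 399, 366 and 356. Unlike most of the cytosolic genes it was not lowest in mouse 2 with LPS-IL-4. The log2 differences were 0.45 ± 0.10 (adjusted p = 0.0328, edgeR) and 0.64 ± 0.11 (adjusted p = 0.0382, edgeR).

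*Yars* (ENSMUSG00000028811, chr4:129189760-129219607) was at 184, 182 and 178 CPM in the LPS-IL-4 controls and at 282, 228 and 252 without Pdap1. In LPS-BAFF-TGFβ it was at 138, 148 and 125 against 233, 220.2 and 242. The groups did not overlap in either culture. Its log2 differences were 0.48 ± 0.11 (adjusted p = 0.0382, edgeR) and 0.77 ± 0.11 (adjusted p = 0.0175, edgeR).

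The comparison of genotypes within LPS-BAFF-TGFβ again gave 6 cytosolic genes called higher and 0 lower, where 0.455% of the 14079 genes tested were called higher and 0.00710% lower. *Cars*, *Nars*, *Aars*, *Iars* and *Yars* were called in both cultures. The sixth was *Lars* (ENSMUSG00000024493, on chromosome 18), the leucine enzyme gene, in place of *Sars*. *Lars* was at 253, 291 and 273 CPM in the LPS-BAFF-TGFβ controls and at 519, 429 and 542 without Pdap1, with a log2 difference of 0.87 ± 0.13 (adjusted p = 0.0175, edgeR). Its LPS-IL-4 levels were 342, 363 and 318 against 597, 402 and 530.0, also apart, but the log2 difference of 0.57 ± 0.15 missed the threshold (adjusted p = 0.0565, edgeR). The median log2 difference was 0.17 over the cytosolic genes and -0.05 over the 15 mitochondrial genes, beside 0.01 over all genes tested.

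*Sars* (ENSMUSG00000068739, chr3:108424865-108445209) was called with LPS-IL-4 alone. Its levels there were 200.3, 193 and 199 CPM in the controls and 319, 247 and 299 without Pdap1. The log2 difference was 0.54 ± 0.12 (adjusted p = 0.0325, edgeR). With LPS-BAFF-TGFβ the levels were 177, 157 and 145 against 249, 221.5 and 249.6. The log2 difference of 0.60 ± 0.12 did not pass there (adjusted p = 0.0809, edgeR). The difference between the cultures was 0.04 ± 0.16 on the log2 scale and did not pass (adjusted p = 0.999, edgeR).

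*Gars* (glycine) and *Tars* (threonine) were called in neither culture, yet each Pdap1-deficient library stood above each control. *Gars* was at 421, 436 and 404 CPM in the LPS-IL-4 controls and at 766, 481 and 698 without Pdap1. In LPS-BAFF-TGFβ it was at 272, 396 and 365 against 680.1, 550.3 and 746. Its log2 differences, 0.62 ± 0.17 (adjusted p = 0.0588, edgeR) and 0.94 ± 0.17 (adjusted p = 0.0618, edgeR), were as large as those of genes that were called, but its libraries were more spread. *Tars* was at 272, 278 and 260.3 against 438, 288 and 413 CPM with LPS-IL-4, where mouse 2 was close to the controls. With LPS-BAFF-TGFβ it was at 251, 270.1 and 268 against 426, 298 and 431, and its log2 differences were 0.49 ± 0.16 (adjusted p = 0.0933, edgeR) and 0.56 ± 0.15 (adjusted p = 0.260, edgeR).

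In all, the same 9 cytosolic genes had every Pdap1-deficient library above every control in both cultures: *Aars*, *Cars*, *Gars*, *Iars*, *Lars*, *Nars*, *Sars*, *Tars* and *Yars*. Groups did not overlap, with Pdap1-deficient libraries higher, for 15.5% of all genes tested in LPS-IL-4 and 9.55% in LPS-BAFF-TGFβ. If the same 3 mice per genotype stand behind both cultures, as was taken here, the match between them is not a repeat in other animals. *Atf4* itself was between 274 and 295 CPM in the LPS-IL-4 controls and at 691, 463 and 601 without Pdap1, and between 197 and 231 against 544, 417 and 488 with LPS-BAFF-TGFβ. As for most of the cytosolic genes, mouse 2 had the lowest *Atf4* of the Pdap1-deficient libraries in both cultures.

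**Figure D2:**
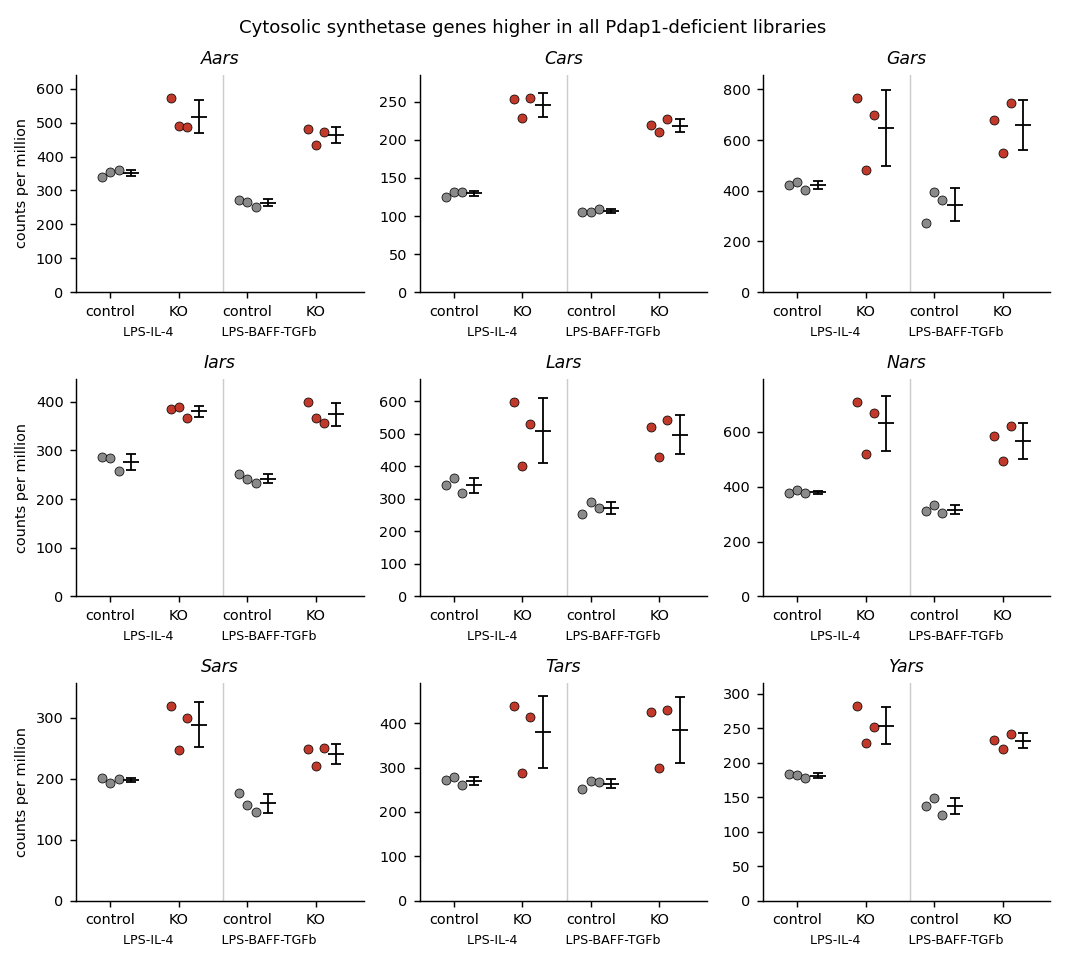
CPM of the 9 cytosolic synthetase genes in each library, by genotype (grey, control and red, Pdap1-deficient, KO) and stimulation, with the mean and SD of 3 libraries beside the points. In all 9 panels the red points lie above the grey ones in both cultures, with the widest gap, as a ratio of the lowest red to the highest grey point, for *Cars* and the narrowest for *Tars*, where mouse 2 (middle red point) is at 288 against 278 CPM in the highest LPS-IL-4 control.

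The threshold cut through a continuous range, and the number of calls moved with the libraries. Without Pdap1-deficient mouse 2, LPS-IL-4 gave 13 members called, 10 higher and 3 lower, and LPS-BAFF-TGFβ gave 4, all higher. Leaving out any control with LPS-IL-4, or Pdap1-deficient mouse 3, left *Cars* as the only call, whereas leaving out Pdap1-deficient mouse 1 gave 8 calls. With LPS-BAFF-TGFβ, *Cars* was the only call without control mouse 3 or without Pdap1-deficient mouse 1 or 3, *Cars* and *Yars* were the calls without control mouse 2, and 8 genes were called without control mouse 1, the deepest library. Calls over all genes moved as well, from 741 with LPS-IL-4 to 1459 without Pdap1-deficient mouse 2, to 1759 without mouse 1 and to between 69 and 163 where *Cars* was the only member left. With LPS-BAFF-TGFβ they went from 65 to 33 without Pdap1-deficient mouse 2, to between 19 and 28 where *Cars* was the only member, to 47 without control mouse 2 and to 116 without control mouse 1. The Wald test of DESeq2 called 9 cytosolic genes higher with LPS-IL-4, which are the 9 named above, where 4.10% of all genes were called higher. With LPS-BAFF-TGFβ it called 8 of them, without *Tars*, where 0.749% were called higher.

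The other 11 cytosolic genes were called in neither culture. With LPS-IL-4, *Farsa*, the alpha chain of the phenylalanine enzyme, was at 105, 114 and 118 CPM in the controls and at 92.8, 71.7 and 81.6 without Pdap1, with a log2 difference of -0.47 ± 0.12 (adjusted p = 0.0540, edgeR). With LPS-BAFF-TGFβ it was at 96.2, 94.2 and 89.3 against 75.8, 63.0 and 76.4, with a log2 difference of -0.37 ± 0.12 (adjusted p = 0.340, edgeR). The groups were apart in both cultures, in the direction opposite to the 9 genes above. Its partner chain *Farsb* had log2 differences of -0.11 ± 0.17 and 0.04 ± 0.17, with overlapping groups. The difference between the genes of the 2 chains was not tested.

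*Kars*, the lysine enzyme gene, had steady controls, at 359.9, 354 and 356 CPM with LPS-IL-4, and stood at 302, 225 and 288 without Pdap1. With LPS-BAFF-TGFβ the levels were 313, 323 and 320.5 against 282, 223 and 279.6. The groups did not overlap, and the log2 differences were -0.40 ± 0.13 (adjusted p = 0.0936, edgeR) and -0.28 ± 0.12 (adjusted p = 0.469, edgeR). *Hars* (histidine) and *Qars* (glutamine) were also lower in each Pdap1-deficient library in both cultures, with log2 differences of -0.29 ± 0.13 and -0.21 ± 0.10 with LPS-IL-4, and none was called. Groups did not overlap in this direction for 16.1% of all genes tested in LPS-IL-4 and 9.09% in LPS-BAFF-TGFβ. DESeq2 called *Farsa*, *Kars* and *Vars* (valine) lower with LPS-IL-4 (adjusted p = 0.0143, 0.0364 and 0.0315) and 0 cytosolic genes lower with LPS-BAFF-TGFβ, where it called 4.81% and 0.234% of all genes lower.

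*Eprs*, *Dars*, *Farsb*, *Mars* and *Wars* had overlapping groups in both cultures. *Eprs*, the most highly expressed member by CPM in the controls apart from *Lars2*, was at 919 ± 45.5 CPM in the LPS-IL-4 controls and 986 ± 193 without Pdap1 (SD, n = 3), a log2 difference of 0.10 ± 0.15. *Wars* was at 97.3 ± 6.48 against 99.3 ± 11.5 CPM. For these genes the difference between genotypes was within the spread of the mice when all libraries were used. Without Pdap1-deficient mouse 2, *Eprs* was called higher with LPS-IL-4 (log2 difference 0.26, adjusted p = 0.029, edgeR), where 1459 genes were called in all. Without Pdap1-deficient mouse 1 its log2 difference was -0.02.

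**Figure D3:**
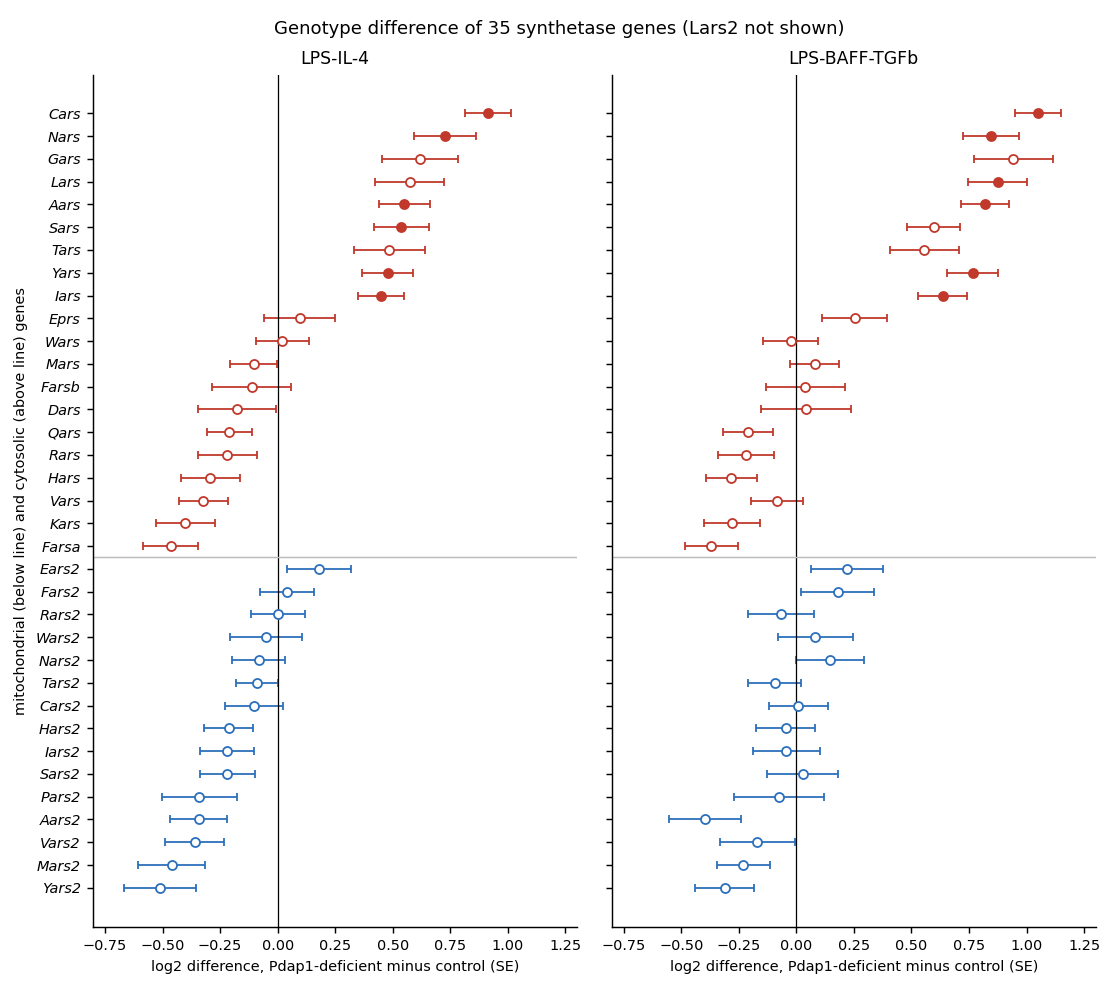
Log2 difference between Pdap1-deficient and control libraries with its SE for 20 cytosolic genes (red, above the line) and 15 mitochondrial genes (blue, below the line) in each stimulation, with filled points for an adjusted p under 0.05. The cytosolic genes spread from -0.47 to 0.91 with LPS-IL-4 and from -0.37 to 1.05 with LPS-BAFF-TGFβ, and no mitochondrial gene is filled.

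Members of the multisynthetase complex and the free enzymes were set side by side. The complex holds 8 of the cytosolic members, *Dars*, *Eprs*, *Iars*, *Kars*, *Lars*, *Mars*, *Qars* and *Rars*, and of these 1 was called higher with LPS-IL-4 (*Iars*) and 2 with LPS-BAFF-TGFβ (*Iars* and *Lars*). Of the 12 others 5 and 4 were called higher. The median log2 difference was -0.14 and 0.06 within the complex and 0.48 and 0.58 outside it, and the difference between these subsets was not tested. The 9 genes with separate groups came from both structural classes of the enzymes, 4 from the 9 members of class I and 5 from the 10 members of class II, with *Eprs* joining both classes.

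To see whether the higher genes share promoter sequence, RefSeq promoters (GRCm38.p6, 250 bases before to 50 after the start) were searched for TGATGNAA on both strands, the core of the composite element bound by Atf4 with a C/EBP partner. Promoters were matched for 13 of the 20 cytosolic and 14 of the 16 mitochondrial genes. *Cars*, *Hars*, *Lars*, *Nars*, *Rars*, *Vars* and *Wars*, and *Hars2* and *Pars2*, were not matched. The motif was found for 5 of the 13 cytosolic genes and 0 of the 14 mitochondrial genes, against 1304 of all 32851 promoters (3.97%). The 5 were *Aars*, *Gars*, *Iars*, *Tars* and *Yars*, all among the 9 genes whose groups were apart, and the motif was not found in the window of *Sars*. A window from each is shown because it is the part these genes have in common, as 30 bases on the strand that reads TGATGNAA, with the motif in capitals.
Aars (chr8:111033840-111033869, minus strand): tcagagcgctcTGATGAAAagtgacccgct
Gars (chr6:55037960-55037989, minus strand): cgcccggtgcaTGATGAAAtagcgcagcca
Iars (chr13:49682126-49682155, minus strand): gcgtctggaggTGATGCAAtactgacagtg
Tars (chr15:11399655-11399684, plus strand): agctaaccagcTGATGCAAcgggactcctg
Yars (chr4:129189895-129189924, plus strand): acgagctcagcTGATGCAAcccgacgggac
In 4 of these 5 windows the motif reads against the direction of the gene, and in *Yars* along it. Counted in the gene's direction, the motif begins at 10 in *Aars*, at -30 in *Gars*, at 8 in *Iars*, at -15 in *Tars* and at 4 in *Yars*. In each window shown it thus begins within 30 bases of the RefSeq start. Sites farther before the start were left out of the windows shown, and *Aars* had 2 sites in its promoter. Closeness to the start is thus partly set by that choice. For *Aars* and *Yars* the RefSeq start lies downstream of the gene start given above. A match of these letters is a description of the window and not a measured binding site.

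Of the 15 mitochondrial genes 0 were called in either culture by edgeR in the fit described above. With LPS-IL-4, edgeR on the unfiltered table called *Mars2* and *Yars2* lower (1694 genes called in all), and without Pdap1-deficient mouse 1 it called *Vars2* lower (1759 in all). The mitochondrial differences were mostly below 0 with LPS-IL-4, where 12 were fitted lower and 3 higher. They ran there from -0.51 to 0.18 on the log2 scale. The largest fall was as large as some rises called among the cytosolic genes. With LPS-BAFF-TGFβ 9 were fitted lower and 6 higher, from -0.40 to 0.22. Groups did not overlap, with lower values without Pdap1, in 8 of the 15 LPS-IL-4 comparisons and 3 of the LPS-BAFF-TGFβ ones, beside the 16.1% and 9.09% of all genes given above. The 3 are *Aars2*, *Mars2* and *Yars2*, which were apart in both cultures.

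*Yars2*, the mitochondrial tyrosine enzyme gene, was at 49.6, 56.6 and 50.7 CPM in the LPS-IL-4 controls and 37.6, 28.8 and 44.6 without Pdap1, with a log2 difference of -0.51 ± 0.16 (adjusted p = 0.0849, edgeR). With LPS-BAFF-TGFβ it was at 44.9, 45.3 and 43.4 against 33.0, 33.0 and 40.8, with a log2 difference of -0.31 ± 0.13 (adjusted p = 0.449, edgeR). Its cytosolic counterpart *Yars* was called higher in both. *Mars2* (methionine) was at 93.0, 92.2 and 79.1 against 71.3, 51.4 and 70.8 CPM with LPS-IL-4, a log2 difference of -0.46 ± 0.15 (adjusted p = 0.0923, edgeR). DESeq2 called *Mars2* and *Yars2* lower with LPS-IL-4 (adjusted p = 0.0456 and 0.0421) and no mitochondrial gene with LPS-BAFF-TGFβ. *Aars2* (alanine) was at 23.4 ± 2.12 against 18.6 ± 0.539 CPM with LPS-IL-4 and at 22.1 ± 1.99 against 16.8 ± 1.49 with LPS-BAFF-TGFβ (SD, n = 3).

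*Ears2* (glutamate) was the only mitochondrial gene besides *Lars2* with higher values in each Pdap1-deficient library in a culture, and it was so in both. Its level was 12.1 ± 0.950 CPM in the controls and 13.8 ± 0.388 without Pdap1 with LPS-IL-4, and 13.2 ± 0.332 against 15.3 ± 0.670 with LPS-BAFF-TGFβ (SD, n = 3), and it was called in neither (adjusted p = 0.461 and 0.604, edgeR).

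Cytosolic and mitochondrial genes were then compared gene by gene for the same amino acid within a library, which removes any scaling of the library as a whole. The log2 ratio of CPM (prior count 2) was taken for 15 pairs, with *Eprs* set against both *Ears2* and *Pars2*. In 8 of 15 pairs each Pdap1-deficient library had a higher ratio than each control in both cultures. The pairs were those of alanine, cysteine, isoleucine, methionine, asparagine, serine, threonine and tyrosine. All but the methionine pair hold a cytosolic gene that was already apart in both cultures, so the count largely restates that result. The share of other gene pairs with such a separation was not computed. For cysteine with LPS-IL-4 the ratio was 2.05, 1.96 and 2.12 in the controls and 3.12, 2.74 and 3.34 without Pdap1. The increase was 1.02 there and 1.04 with LPS-BAFF-TGFβ, and the groups were far apart in both.

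For tyrosine the increase in the ratio was 0.997 and 1.09, for alanine 0.88 and 1.21, for asparagine 0.79 and 0.69 and for serine 0.75 and 0.58. The methionine pair increased by 0.36 and 0.31, and there *Mars* differed little (log2 differences -0.10 ± 0.10 and 0.08 ± 0.11) while *Mars2* was at lower values without Pdap1. Phenylalanine went the other way: the mean log2 ratio of *Farsa* to *Fars2* was 2.28 in the controls and 1.77 without Pdap1 with LPS-IL-4, and 1.82 against 1.28 with LPS-BAFF-TGFβ, apart in both. The arginine pair was lower in every Pdap1-deficient library with LPS-IL-4 and the histidine pair with LPS-BAFF-TGFβ. By the exact two-sided permutation test 3 against 3 libraries cannot give a p under 0.1, which each pair with separate groups reached (0.150 adjusted over 15 pairs).

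**Figure D4:**
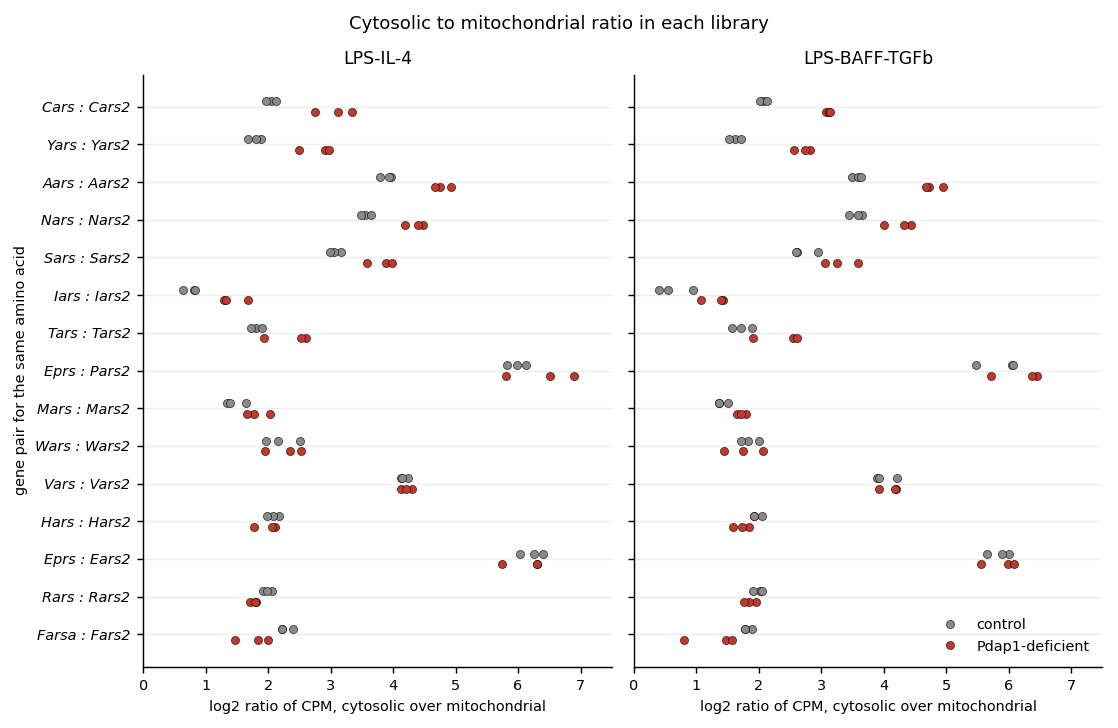
Log2 ratio of the CPM of a cytosolic gene to that of the mitochondrial gene for the same amino acid, in each control (grey) and Pdap1-deficient (red) library, for 15 pairs and both stimulations. The cysteine, tyrosine and alanine pairs show the widest gaps, and *Farsa* to *Fars2* is the pair where the red points lie to the left in both panels.

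Summed over genes, the cytosolic set took 5971, 6074 and 5844 CPM in the LPS-IL-4 controls and 7781, 5883 and 7231 without Pdap1, so mouse 2 lay within the controls. With LPS-BAFF-TGFβ the sums were 4934, 5485 and 5129 against 6943.5, 5925.5 and 7165. The 15 mitochondrial genes summed to 692, 704 and 695 CPM against 641, 560.4 and 624, and to 638, 695 and 640.2 against 612, 611 and 641. The ratio of the sums was 8.62, 8.63 and 8.40 in the LPS-IL-4 controls and 12.1, 10.5 and 11.6 without Pdap1, and 7.74, 7.89 and 8.01 against 11.3, 9.69 and 11.2 with LPS-BAFF-TGFβ. In this ratio mouse 2 stood above every control in both cultures.

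*Lars2*, the mitochondrial leucine enzyme gene (ENSMUSG00000035202, chr9:123366927-123462666), stood apart from the other members in its spread. With LPS-IL-4 it was at 1357, 8645 and 5557 CPM in the controls and at 3985, 3766 and 1148 without Pdap1. With LPS-BAFF-TGFβ it was at 940.3, 987 and 4774 in the controls and at 109445, 18526 and 10317 without Pdap1. Libraries of the same group thus differed by up to 10.6-fold, and in Pdap1-deficient mouse 1 with LPS-BAFF-TGFβ this single gene took 9.90% of all counts. The other 15 mitochondrial genes stayed at or below 181 CPM in every library, *Iars2* (isoleucine) being the highest of them.

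The LPS-BAFF-TGFβ groups of *Lars2* did not overlap, with a log2 difference of 4.37 ± 1.44, but the spread between libraries left it uncalled (adjusted p = 0.442, edgeR). Without Pdap1-deficient mouse 1 the log2 difference was 2.70 (adjusted p = 0.570, edgeR). With LPS-IL-4 it was -0.82 ± 0.87 (adjusted p = 0.634, edgeR). *Gm15564* is of the antisense type in GENCODE, and it was not found to overlap *Lars2*. With LPS-IL-4 it was at 1.56, 17.9 and 11.2 CPM in the controls and at 11.3, 9.35 and 4.43 without Pdap1. With LPS-BAFF-TGFβ it was at 10.01, 5.71 and 22.1 against 599.5, 74.0 and 43.5. The 3 libraries with the highest *Lars2* were the 3 with the highest *Gm15564*, in the same order.

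Sequence shared by these genes was sought by aligning the *Lars2* transcript (ENSMUST00000038863.8, 3894 bases) to all GENCODE M21 transcripts with blastn. The highest identity was with *Gm15564*, over 72 bases at 98.6% identity, between positions 3278 and 3349 of the transcript, which is chr9:123462048-123462119 near the end of the gene. The longest alignment was with *AA474408*, over 196 bases at 80.1% identity, between positions 3163 and 3349. *AA474408* was between 6.32 and 11.02 CPM in the 12 libraries and at 7.72, 7.62 and 6.32 in the Pdap1-deficient LPS-BAFF-TGFβ libraries, where *Lars2* was highest. No alignment of this transcript to *CT010467.1* or to the mitochondrial ribosomal RNA genes *mt-Rnr1* and *mt-Rnr2* was found at an E-value of 0.001. The exons of the *Lars2* gene cover 11089 bases in all, and those outside this transcript were not aligned. Ribosomal RNA sequence outside the GENCODE transcripts was not searched either. The search thus cannot show that *Lars2* shares no sequence with ribosomal RNA. The table gives counts per gene, so how many *Lars2* reads fell on that stretch was not tested. With LPS-BAFF-TGFβ *CT010467.1* was at 37300, 374 and 894 CPM in the controls, with its highest value where *Lars2* was lowest, and at 19940, 2206 and 978 without Pdap1, in the same order as *Lars2*. *mt-Rnr1* and *mt-Rnr2* had their highest values of the 12 libraries, 8363 and 25570 CPM, in the library with the highest *Lars2*. The part of ribosomal RNA reads in the *Lars2* counts was not tested.

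**Figure D5:**
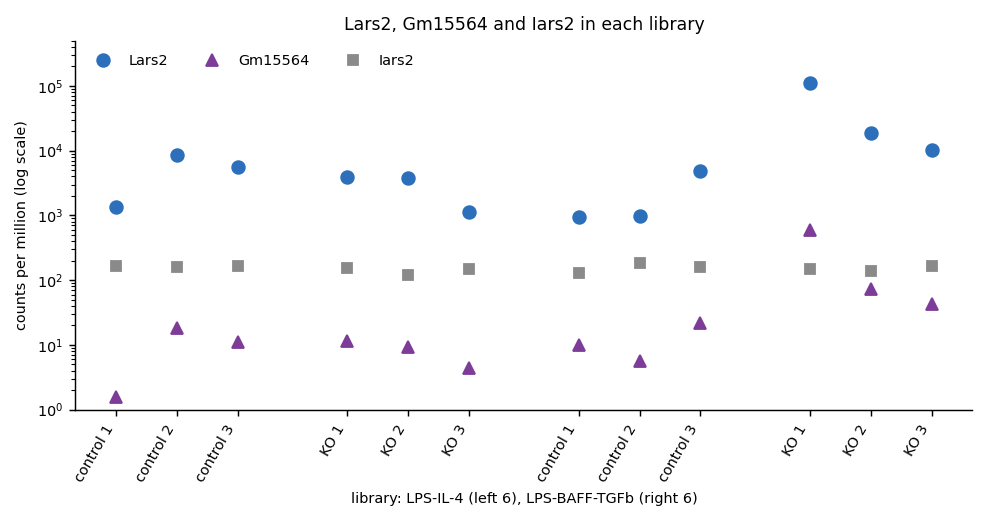
CPM of *Lars2*, *Gm15564* and *Iars2* in each of the 12 libraries, on a log axis. *Lars2* ranges from 940.3 to 109445 and *Gm15564* from 1.56 to 599.5, with both highest in the same 3 libraries, while *Iars2* stays between 121 and 181.

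Whether the genotype difference itself changed with the stimulation was tested as an interaction term in a fit of all 12 libraries. Of 15794 genes 0 passed by edgeR and 755 had an unadjusted p under 0.05 (4.78%), and 0 of the 36 members passed by edgeR or by DESeq2, which called 6 genes in all (0.0158% of its genes higher and 0.00317% lower). Among the members *Lars2* alone had an unadjusted p under 0.05 (0.0132, edgeR). The log2 difference was larger with LPS-BAFF-TGFβ for *Gars* by 0.31 ± 0.25, for *Lars* by 0.29 ± 0.20, for *Yars* by 0.27 ± 0.14 and for *Aars* by 0.25 ± 0.13, each of them less than 2 SE. A p that misses the threshold does not show that the responses were equal.

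The stimulations were also compared within a genotype. In control mice 4 cytosolic genes were called lower in LPS-BAFF-TGFβ than in LPS-IL-4 cultures, *Wars* with a log2 difference of -0.43 ± 0.10, *Aars* of -0.41 ± 0.08, *Yars* of -0.40 ± 0.09 and *Cars* of -0.29 ± 0.08 (adjusted p = 0.0185, 0.00903, 0.0173 and 0.0370, edgeR). Of all genes tested 9.33% were called lower and 9.99% higher. The groups did not overlap in that direction for 15 of the 20 cytosolic genes, against 18.8% of all genes, and for 3 of the 15 mitochondrial ones. In the other direction they did not overlap for 0 cytosolic and 1 mitochondrial gene, *Fars2*, against 19.0% of all genes. Without the deep library of control mouse 1, 11 cytosolic genes were called lower, while the calls over all genes went from 2874 to 4858. The main test did not pair the cultures by mouse. With the replicate number as a block 0 members were called, and 1989 genes in all.

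In Pdap1-deficient mice *Wars* was the only member called between stimulations by edgeR, at 111, 98.9 and 88.1 CPM with LPS-IL-4 and 74.2, 64.7 and 72.6 with LPS-BAFF-TGFβ, a log2 difference of -0.49 ± 0.12 (adjusted p = 0.0246, edgeR), where 5.89% of all genes tested were called lower and 5.57% higher. *Wars* was thus lower with LPS-BAFF-TGFβ in both genotypes while showing no difference between genotypes beyond the spread of the mice. DESeq2 called *Wars* lower and *Lars2* higher, the latter with a log2 difference of 3.94 (adjusted p = 0.00431, DESeq2) against 3.96 ± 1.26 by edgeR (adjusted p = 0.160), where DESeq2 called 4.77% of all genes higher and 5.86% lower. With the mouse as a block 5 members were called by edgeR, *Hars*, *Sars* and *Wars* lower and *Vars* and *Vars2* higher, while the calls over all genes went from 1675 to 3854. Of the 9 genes above, *Sars* had the lowest log2 difference between the cultures of Pdap1-deficient mice, -0.26 ± 0.12, followed by *Cars* at -0.17 ± 0.10, *Aars* at -0.16 ± 0.11, *Nars* at -0.16 ± 0.14 and *Yars* at -0.13 ± 0.11. *Lars* was at -0.03 ± 0.15, *Iars* at -0.02 ± 0.10, *Tars* at 0.02 ± 0.19 and *Gars* at 0.03 ± 0.18.

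Genes that work with the synthetases were taken as a list of 17: the complex scaffolds *Aimp1*, *Aimp2* and *Eef1e1*, the threonine enzyme *Tarsl2*, the glutamine amidotransferase subunits *Gatb*, *Gatc* and *Qrsl1*, the formyltransferase *Mtfmt*, the editing and deacylating proteins *Aarsd1*, *Dtd1* and *Dtd2*, the peptidyl-tRNA hydrolase *Ptrh2*, the selenocysteine enzymes *Pstk* and *Sepsecs*, the tRNA export receptor *Xpot*, and *Eif2ak4* and *Gcn1l1*, the kinase that senses uncharged tRNA and its activator. By edgeR 0 of 17 were called in either culture, with 3 and 2 at an unadjusted p under 0.05 (23.8% and 10.6% of all genes), and DESeq2 called 0 in either. *Aimp2* had log2 differences of -0.49 ± 0.16 and -0.71 ± 0.21 (adjusted p = 0.102 and 0.315, edgeR), *Eef1e1* of -0.50 ± 0.19 and -0.14 ± 0.15, and *Xpot* of 0.27 ± 0.17 and 0.40 ± 0.14. Neither *Eif2ak4* (-0.04 ± 0.10 and 0.06 ± 0.11) nor *Gcn1l1* (-0.28 ± 0.11 and -0.14 ± 0.11) was called.

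Several members share exon sequence with a neighbour, and whether reads were counted by strand is not given in the sources used here. On opposite strands, 13 members overlap another gene exon to exon. *Mars* and *Ddit3*, the stress-induced transcription factor gene, share 68 bases, and *Ddit3* held 1727 counts in all against 37719 for *Mars*. *Hars* and *Hars2* share 195 bases, *Iars2* shares 2034 with *Rab3gap2*, *Cars2* 422 with *Naxd*, and *Ears2* 89 with *Ubfd1*, which had 20098 counts against 2327. *Aars* holds the exon of *Exosc6* on the same strand, 1326 bases, and *Exosc6* had 0 counts, which limits what the level of *Aars* per length can tell. *Iars* aligns with the processed pseudogene *Gm4849* over 2251 bases at 94.7% identity, and *Gm4849* had 269 counts in all against 51516. Values of these genes are therefore less certain where a neighbour shares their reads.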

How the data were processed

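RNA-seq libraries of splenic B cells from 3 control and 3 Pdap1-deficient mice in 2 stimulations were used. Per the labels and the methods, the authors depleted ribosomal RNA with Ribo-Zero Gold. For the libraries the labels name a stranded mRNA kit and the methods a stranded total RNA kit, and which was used is not settled here. The authors trimmed reads (Trim Galore 0.6.1), mapped them to GRCm38 (STAR 2.6) and counted them per Ensembl gene (HTSeq 0.9.1). They deposited these raw counts. A second deposited table of normalized counts was not used. The annotation release and the strand setting of the counting were not given in the sources used here. Names, positions and transcript lengths came from GENCODE M21.

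Genotypes were compared within each stimulation, and stimulations within each genotype, with the robust quasi-likelihood F test of edgeR 4.0.16 (R 4.3.3) on the counts, after filterByExpr and TMM scaling, with Benjamini-Hochberg adjustment over all genes tested and a threshold of 0.05. The genotype by stimulation term used all 12 libraries. CPM values use TMM factors over the 12 libraries, and CPM per kb divides them by the length of the longest coding transcript. Pair ratios were tested with an exact permutation test. Alternatives were DESeq2 1.42.0, its size factors, other filters on low counts, each library left out, replicate numbers as a block, a threshold of 0.01, one fit of the 12 libraries, a prior count of 0.5, and ribosomal RNA features left out. Transcripts were aligned with blastn 2.17.0. The steps were tested on simulated counts, with changed genes drawn from all genes that passed the filter. There edgeR recovered 56% of 2-fold changes with LPS-IL-4, 46% with LPS-BAFF-TGFβ and 25% for genotype by stimulation. A member that was not called is thus not shown to be unchanged.

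Depth was 4579793 to 69500640 counts per library. With 3 mice a group, the spread between mice, more than counting, sets the precision. No library was a copy of another of its group: the chi-square of their counts was at least 7.07 per degree of freedom. The labels use the same numbers in both stimulations, which were taken to mark the same mouse although the sources do not state it. The deviations from the group means of such cultures correlated at -0.181, 0.341 and -0.0228 in controls and at 0.579, 0.622 and 0.293 in Pdap1-deficient mice. The same number in the 2 genotypes marks different mice. Named genes are the members, with values in every library for those called, for *Lars2* and for the lowest and highest, and neighbours that overlap or align with them. *Gars*, *Tars*, *Farsa*, *Kars*, *Yars2* and *Mars2* were singled out after their values were seen. Some listed items are not reported here. The members and lists were chosen with earlier results of these data known.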

Additional observations from a re-analysis of the deposited data

How the results depend on the processing

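The genotype calls of members depended on the test, the filter and single mice, while no called difference reversed its direction under any alternative. Members that were not called could change sign. With LPS-IL-4 the log2 difference of *Farsb* went from -0.11 to 0.09 without Pdap1-deficient mouse 2. With LPS-IL-4 the 6 calls became 14 with DESeq2 (9 higher, 5 lower), 13 without a filter on low counts (9 higher, 4 lower) and 1 at an adjusted p under 0.01. They were 4 with the replicate number as a block and 8 with the 12 libraries in one fit, and from 1 to 13 with a library left out. With LPS-BAFF-TGFβ the 6 calls became 1 with the replicate block and 1 at the stricter threshold, 8 with DESeq2, and from 1 to 8 with a library left out. *Cars* was called in each of these. For genotypes, the replicate block ties control and Pdap1-deficient mice that share only a number. Its calls therefore do not measure an effect of pairing. Between stimulations, the 4 calls in controls (2874 genes in all) became 0 with the replicate number as a block (1989) and 1 at the stricter threshold (1515). They were from 0 to 11 with a library left out. The 1 call in Pdap1-deficient mice (1675 genes in all) became 2 with DESeq2 (1796) and 5 with the replicate number as a block (3854). It became 0 at the stricter threshold (853) and from 0 to 3 with a library left out. Leaving out a library also leaves fewer samples in the fit, and the cause of the other moves was not tested. The 8 pairs with a higher ratio in both cultures were 8 with a prior count of 0.5. With a library left out they were from 8 to 9. Groups already apart stay apart when a library is removed, so that count could hardly fall and does not test the result. The genotype by stimulation term called 0 members under all alternatives. Over all genes, the calls with LPS-IL-4 were 741, against 1217 with DESeq2 and 1694 without a filter. They were 641 with the replicate block, 588 with the 12 libraries in one fit and 130 at the stricter threshold. With LPS-BAFF-TGFβ they were 65, against 172 with DESeq2 and 257 without a filter. The replicate block gave 48 there and the stricter threshold 27. Of the 3 control cultures with LPS-IL-4, 1 correlated best with the LPS-BAFF-TGFβ culture of its own number, against 3 of 3 in Pdap1-deficient mice, so the pairing of the controls is uncertain. The lowest count of a member in a library was 67, and what depth limits beyond the spread between mice was not tested.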
